A study of Mus musculus with 10 samples.

Results

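Insulin and insulin-like growth factor (IGF) signalling genes were compared between pancreatic islets of NZO and C3H mice. The 48 listed genes were chosen by name and role, as ligands, binding proteins, receptors, adaptors, kinases, phosphatases and transcription factors of the pathway. Earlier results of these data were known when the list was made. Each gene was represented by the brightest probe set that carried its symbol alone, and 46 of the 48 were measured, among 19938 genes tested. Igf2bp2 and Rps6kb1 were not analysed here. Islets are the endocrine cell clusters of the pancreas, and these came from male mice aged 6 weeks. From weaning at 21 days the mice ate a high-fat diet (45% of energy). There were 5 arrays of NZO/Hl, an inbred strain that becomes obese and diabetic, and 5 of C3H (C3HeB/FeJ), the other strain. All islets of both strains were cultured overnight with 10 mM glucose before RNA was taken. Each array read 150 ng of islet RNA on a whole-transcript gene array, and every level below is a log2 RMA value, so that 1 unit is a doubling.

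Insulin, IGF-1 and IGF-2 act through related receptor tyrosine kinases, which phosphorylate docking proteins such as IRS1 and IRS2. These recruit phosphoinositide 3-kinase (PI3K), whose lipid product brings the kinases PDK1 and AKT to the membrane, and AKT in turn acts on GSK3, the TSC complex, mTOR, FOXO factors and Rab regulators. IGF binding proteins hold the ligands outside the cell, and phosphatases remove the phosphates that carry the signal. In beta cells, the insulin-secreting cells of the islet, the pathway is known for its part in growth, survival and the adaptation of beta cell mass to demand.

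The arrays were comparable in overall signal, with medians over the genes tested from 7.46 to 7.55 and correlations of 0.983 to 0.997 within a strain. The islet label was checked on Ins2, an insulin gene. It read 12.33 ± 0.07 (SD, n = 5) in C3H islets and 12.45 ± 0.15 (SD, n = 5) in NZO islets. RNA of other pancreatic cells differed between the strains. Digestive enzyme genes mark acinar cells, and 22 of 23 measured were higher in NZO. Their mean lay between 8.00 and 8.85 in C3H. In NZO it was 9.75 to 10.37 for the first 3 replicates, 11.81 for replicate 4 and 11.68 for replicate 5. Of 4 measured duct genes 2 were higher, of 10 endothelial genes 1 was higher, and 3 of 9 beta, 1 of 3 alpha and 4 of 5 delta and PP cell genes were lower. Of all genes tested 10.1% differed between the strains, and the endothelial count was near that share. Most arrays are titled with a pair of numbers, but NZO replicate 4 has a single number and NZO replicate 5 a span of numbers. Replicate 4 of C3H stood apart on the second principal component (33.89, against -15.13 to 0.34 for the other C3H arrays). In islet RNA, fewer cells of a type and less RNA per cell cannot be told apart.

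The strain comparison asked which islet transcripts differ between the diabetes-prone NZO strain and C3H, in a study of backcross populations. Of the 46 measured members, 9 differed, 8 higher and 1 lower in NZO. Those higher were the growth factors Igf1 and Igf2, the binding proteins Igfbp3 and Igfbp5, the receptor Igf2r, the phosphatases Inpp4b and Ptpn1 and the Rab regulator Tbc1d4. The single lower gene was the receptor inhibitor Grb14. This is 19.6% of the members, where limma called 10.1% of all genes tested (5.47% upward and 4.61% downward) after Benjamini-Hochberg adjustment at a threshold of 0.05. The gap depended on brightness. Among genes above the 25th percentile of brightness limma called 20.9% of members and 13.9% of all genes, and Igf1 passed that filter only through its NZO values. Above the median brightness it called 17.6% of members and 17.2% of all genes. For 8 members no value of one strain fell within the range of the other, 7 with NZO above and 1 with NZO below, against 9.14% of all genes (4.96% above and 4.18% below). The median difference of the members, NZO minus C3H, was 0.00, and that of all genes -0.02. The 37 members that did not pass differed by -0.26 to 0.36, with SEs of 0.07 to 0.15. Of these, 6 had an unadjusted limma p below 0.05, and for 35 the 95% interval of the difference lay within 0.5 of 0.

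**Figure D1:**
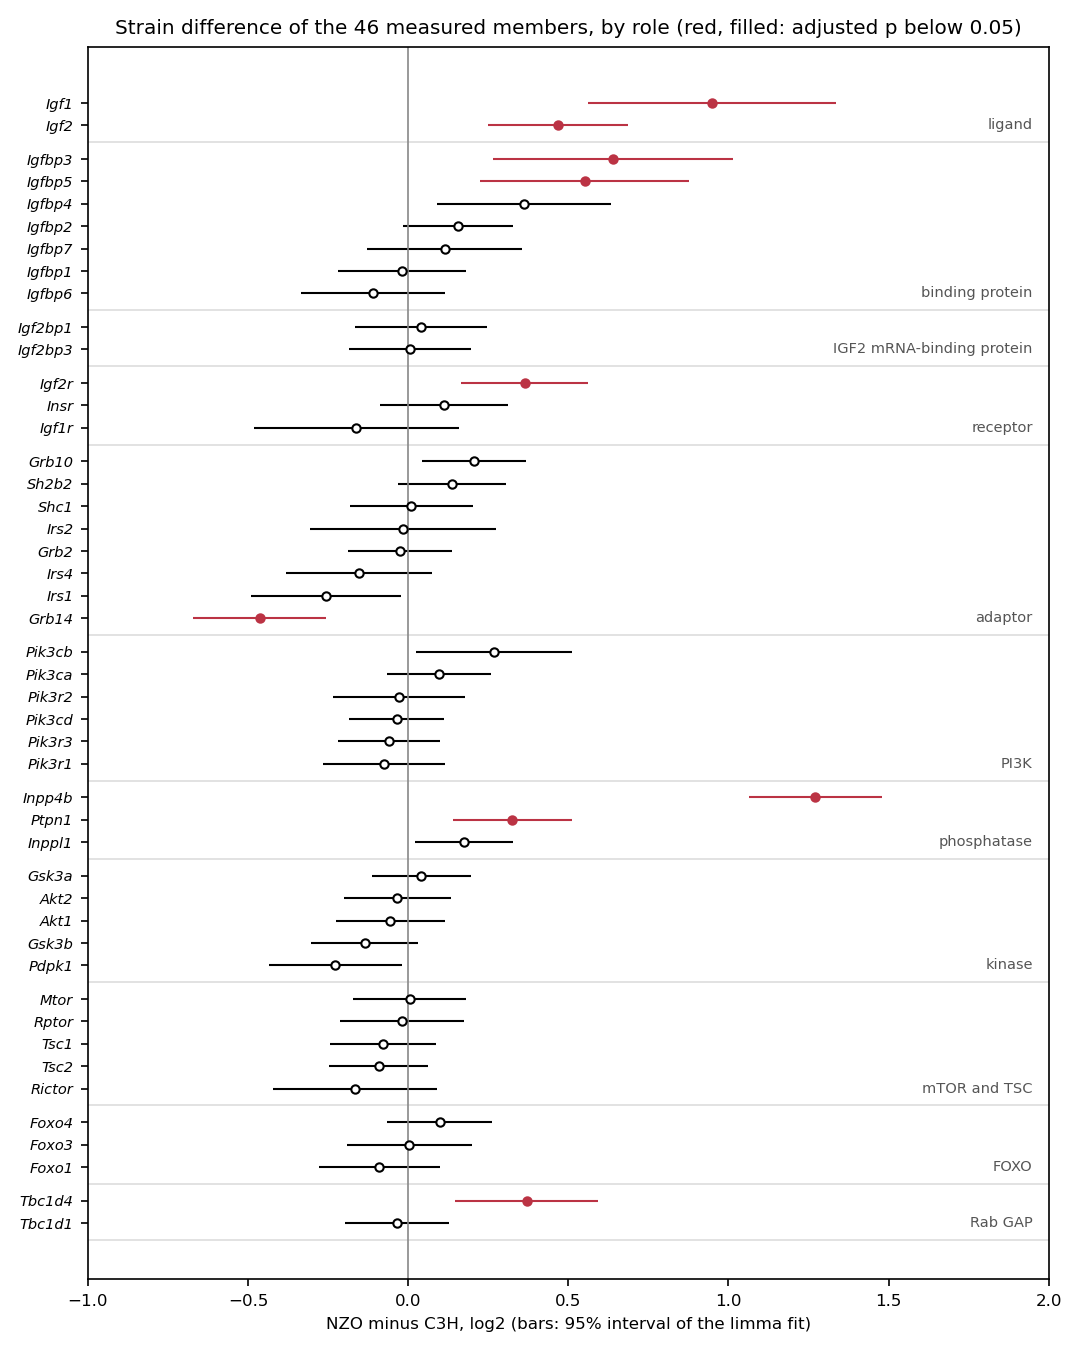
Strain difference (NZO minus C3H, log2, x axis) of each of the 46 measured members, grouped by role, with the 95% interval of the limma fit over 5 arrays per strain. Red filled points are the 9 members at an adjusted p below 0.05: Inpp4b lies farthest to the right at 1.27 and Grb14 is the red point below 0.

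The bases before the transcription starts of 3 members are shown because these genes carry the largest difference (Inpp4b), the one decrease (Grb14) and the larger ligand difference (Igf1). Each run is the 250 bases before the start in RefSeq, build GRCm38.p6, written along the gene's strand, and capitals mark GC boxes. Inpp4b lies on the plus strand with the window chr8:81342312-81342561. Grb14 lies on the minus strand with the window chr2:65022767-65023016. Igf1 lies on the plus strand with the window chr10:87860861-87861110. The annotated Inpp4b gene begins at 81342266 and the annotated Igf1 gene at 87858265. Both of these windows therefore lie inside the gene, before an internal start. The bases before the first base of these 2 genes were not searched.
Inpp4b: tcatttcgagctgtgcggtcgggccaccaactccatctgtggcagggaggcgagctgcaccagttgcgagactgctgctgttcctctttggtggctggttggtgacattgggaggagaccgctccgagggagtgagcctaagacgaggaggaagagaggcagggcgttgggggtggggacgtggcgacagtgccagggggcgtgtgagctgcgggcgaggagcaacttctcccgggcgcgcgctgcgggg
Grb14: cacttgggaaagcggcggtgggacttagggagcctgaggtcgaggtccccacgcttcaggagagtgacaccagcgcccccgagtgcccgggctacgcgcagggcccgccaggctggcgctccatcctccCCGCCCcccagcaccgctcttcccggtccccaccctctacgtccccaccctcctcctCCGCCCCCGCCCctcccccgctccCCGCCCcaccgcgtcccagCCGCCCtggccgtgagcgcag
Igf1: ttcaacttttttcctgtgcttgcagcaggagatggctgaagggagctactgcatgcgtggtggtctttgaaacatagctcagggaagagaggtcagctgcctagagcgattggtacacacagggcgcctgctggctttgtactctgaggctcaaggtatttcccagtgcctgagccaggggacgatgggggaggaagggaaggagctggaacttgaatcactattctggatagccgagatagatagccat
Promoters in RefSeq were matched for 45 of the 48 listed members by symbol. They were searched on both strands for 4 motifs, the FOXO site GTAAACA, the GC box GGGCGG, the TATA box TATAAA and the cyclic AMP element TGACGTCA, none of which contains another. The Grb14 window held 5 GC boxes, while the Inpp4b and Igf1 windows held none of the 4 motifs in these letters. GC boxes were present in 56.2% of 64 member windows and in 32.7% of all 32851 windows of the same length. They were in 50.0% of the 12 windows of members that differed and in 58.0% of the 50 windows of measured members that did not pass. The FOXO site was present in 1 of the 64 member windows (1.56%) and in 3.17% of all windows. It was in none of the 12 windows of the 9 members that differed. The TATA box was in 7.81% of member windows and in 12.4% of all windows. It was in none of the 12 windows and in 10.0% of the 50. The cyclic AMP element was in no member window and in 1.55% of all windows. A match describes these letters only, and RefSeq's letters are those of the C57BL/6J strain, not of NZO or C3H.

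Both measured IGF ligand genes were higher in NZO islets. Igf1, which encodes the main postnatal growth factor of the pathway, read 5.93, 6.07, 5.88, 6.46 and 5.97 on the C3H arrays and 6.69, 6.48, 6.96, 7.51 and 7.41 on NZO replicates 1 to 5. The strains did not overlap, but C3H replicate 4 came within a small distance of NZO replicate 2, and NZO replicates 4 and 5 were the highest. Its C3H mean, 6.06, lay below the 25th percentile of the C3H arrays (6.17 to 6.45), so its C3H signal was not shown to be above background. The measured log2 values differed by 0.95 (SE 0.18, limma adjusted p = 0.00328), which does not give the size of the change in transcript, and no fold is given. Without NZO replicates 4 and 5 the measured values differed by 0.65 (SE 0.14) and Igf1 still passed, whereas with the acinar mean as a covariate beside strain the value was 0.04 (SE 0.26) and it did not. Acinar level and strain went together, and the fitted SEs of the 46 members were 1.47 to 2.22 times as large with that covariate.

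Macrophages, stellate cells and fibroblasts are cell types known to make IGF-1. Their mean marker levels were highest on NZO replicates 4 and 5, where Igf1 was also highest. The acinar and duct means were highest on these arrays too (duct 9.48 and 9.51). The mean of all 10 macrophage genes was 7.63 to 7.77 in C3H. In NZO it was 7.70 to 8.13 for the first 3 replicates, 8.70 for replicate 4 and 8.84 for replicate 5, and limma called 4 of the 10 higher. The mean of the 10 stellate and fibroblast genes was 7.80 to 8.09 in C3H. In NZO it was 7.69 to 8.25 for the first 3 replicates, 8.83 for replicate 4 and 8.89 for replicate 5. Only 1 of the 10 was called higher, near the 10.1% called of all genes. The other arrays matched less well. On NZO replicate 2, Igf1 (6.48) was above all C3H arrays. There the macrophage mean (7.70) lay inside the C3H range and the stellate and fibroblast mean (7.69) below it. On C3H replicate 4, Igf1 was the highest of C3H and the macrophage mean (7.63) the lowest. The part of these cell types in the Igf1 difference was not tested.

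Igf2, the fetal growth factor gene that is expressed from the paternal copy, read 7.58, 7.60, 7.60, 7.78 and 7.48 in C3H and 8.31, 8.32, 7.93, 7.93 and 7.91 in NZO. All NZO arrays lay above all C3H arrays, with NZO replicates 1 and 2 the highest. The difference was 0.47 (SE 0.10, 1.38-fold, limma adjusted p = 0.00859). Unlike Igf1, Igf2 was not highest on the arrays with the most acinar RNA, and it passed without NZO replicates 4 and 5 (0.58, SE 0.11) and with the acinar covariate (0.85, SE 0.19). Igf2 kept its call under all 20 alternatives run. Its neighbour Ins2 differed by 0.12 (SE 0.08, limma adjusted p = 0.477).

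**Figure D2:**
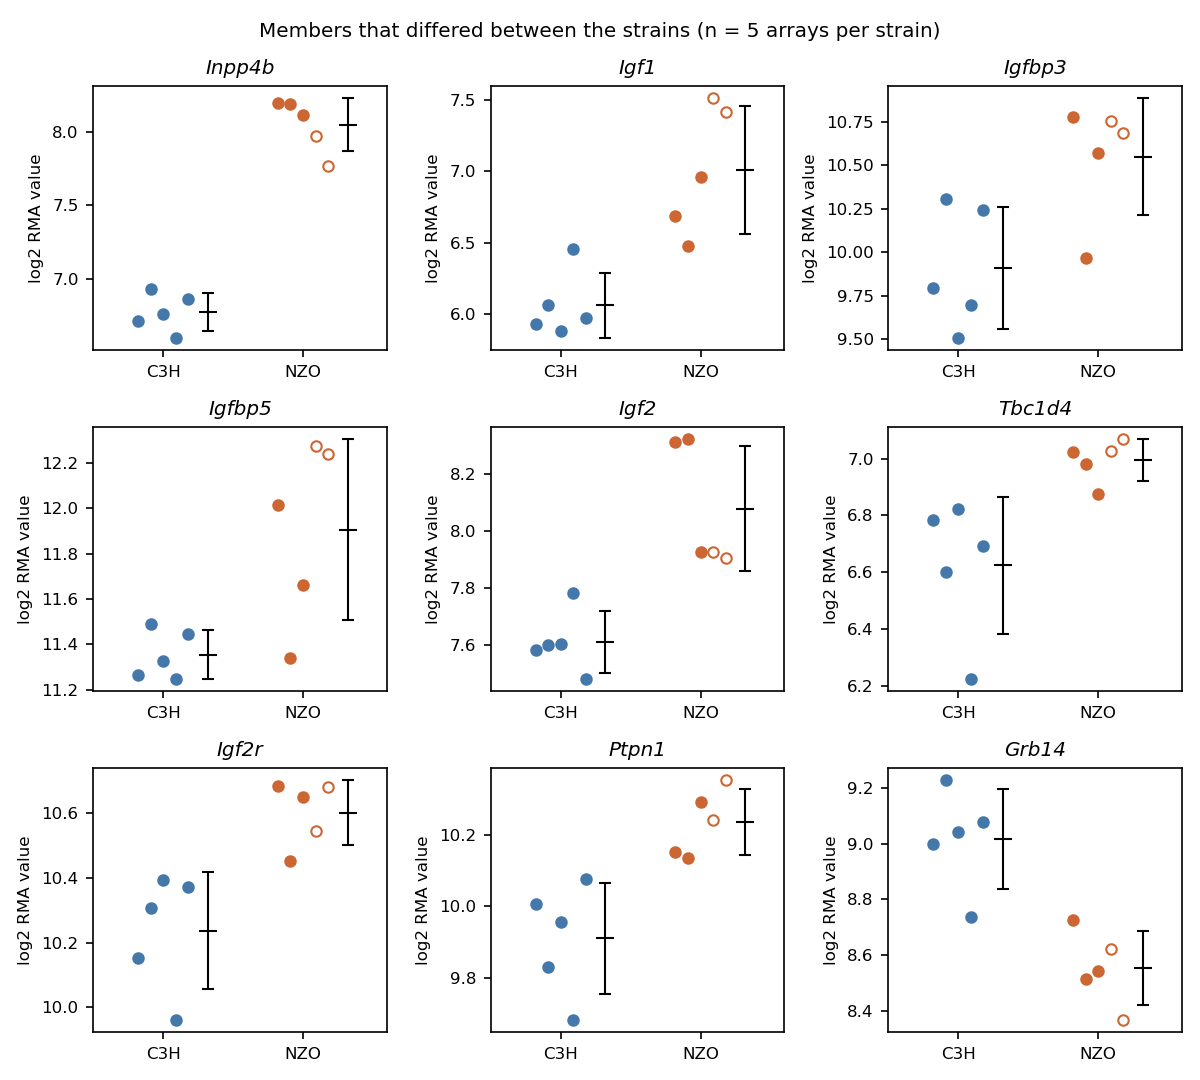
Log2 RMA values (y axis, a separate scale per panel) of the 9 members that differed, 1 point per array, with the mean and SD over 5 arrays per strain. Open circles are NZO replicates 4 and 5: they are the highest for Igf1 (7.51 and 7.41) and Igfbp5 (12.28 and 12.24) and the lowest NZO values for Inpp4b (7.97 and 7.76).

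Of 7 IGF binding protein genes, Igfbp3 and Igfbp5 were higher in NZO and the other 5 did not pass. Igfbp3, which encodes the main IGF carrier of the blood, read 9.80, 10.31, 9.51, 9.70 and 10.24 in C3H and 10.78, 9.97, 10.57, 10.75 and 10.68 in NZO. NZO replicate 2 fell inside the C3H range and the other 4 NZO arrays lay above it. Its difference was 0.64 (SE 0.17, 1.56-fold, limma adjusted p = 0.0307). Igfbp5, a binding protein that attaches to extracellular matrix, read 11.26, 11.49, 11.33, 11.25 and 11.45 in C3H and 12.01, 11.34, 11.66, 12.28 and 12.24 in NZO. Here too NZO replicate 2 lay among the C3H values. The difference was 0.55 (SE 0.15, 1.47-fold, limma adjusted p = 0.0327).

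Both binding protein calls were fragile to the arrays used. Each ended in 7 of the 10 fits that left out 1 array. Igfbp3 passed only without C3H replicate 2, C3H replicate 5 or NZO replicate 2 and ranged from 0.54 to 0.79. Igfbp5 passed only without C3H replicate 2, NZO replicate 2 or NZO replicate 3 and ranged from 0.46 to 0.69. The highest adjusted p over these fits was 0.0870 for Igfbp3 and 0.0921 for Igfbp5. Igfbp5 was 0.32 (SE 0.13) without NZO replicates 4 and 5, and -0.12 (SE 0.25) with the acinar covariate, where its sign turned. Igfbp3 was 0.53 (SE 0.20) and 0.40 (SE 0.36) in the same fits, and neither gene passed in them.

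Among the other binding proteins, Igfbp4, whose product is cleaved to release IGF, came nearest to the threshold. It read 7.09, 7.44, 7.34, 7.36 and 7.31 in C3H and 7.37, 7.44, 7.59, 7.86 and 8.10 in NZO, which put NZO 0.36 higher (SE 0.13, limma adjusted p = 0.0923). Its highest values were again on NZO replicates 4 and 5, and NZO replicates 1 and 2 lay within the C3H range or at its edge. The Igfbp4 value was 0.16 (SE 0.10) without NZO replicates 4 and 5, and its sign turned with the acinar covariate (-0.16, SE 0.22). Igfbp4 was called with array weights, without NZO replicate 1 and without NZO replicate 2. Igfbp2, a binding protein common in metabolic tissues, differed by 0.16 (SE 0.08). Igfbp7, which binds IGF weakly and is typical of blood vessels, differed by 0.11 (SE 0.11) with an NZO range of 11.98 to 12.57 around the C3H range of 12.12 to 12.25. Its sign turned without NZO replicates 4 and 5 (-0.03, SE 0.11) and with the acinar covariate (-0.30, SE 0.21). Igfbp6, which prefers IGF-2, differed by -0.11 (SE 0.10). Igfbp1, a classic FOXO target of liver, differed by -0.02 (SE 0.09) and was dim in both strains. The RNA-binding genes Igf2bp1 (0.04, SE 0.10) and Igf2bp3 (0.01, SE 0.09), whose products bind Igf2 mRNA in the embryo, did not pass either, and Igf2bp3 was dim. Neither had an unadjusted limma p below 0.05.

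The signalling receptors themselves did not pass. Insr, the insulin receptor gene, read 9.28, 9.65, 9.45, 9.19 and 9.48 in C3H and 9.60, 9.41, 9.50, 9.65 and 9.44 in NZO. The strains overlapped, and the difference was 0.11 (SE 0.09, 95% interval -0.09 to 0.31). A second Insr probe set differed by 0.23 (SE 0.09, limma adjusted p over all probe sets 0.160). Igf1r, the IGF-1 receptor gene, read 11.23, 11.80, 11.78, 11.34 and 11.74 in C3H and 11.59, 11.46, 11.81, 11.08 and 11.15 in NZO. NZO replicates 4 and 5 held the lowest values of all, NZO replicates 1 and 2 lay inside the C3H range and NZO replicate 3 at its upper edge. The Igf1r difference was -0.16 (SE 0.15, 95% interval -0.48 to 0.16), but 0.04 (SE 0.14) without NZO replicates 4 and 5 and 0.51 (SE 0.24) with the acinar covariate, so that its sign was not settled.

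Igf2r was the receptor that differed. It encodes the mannose-6-phosphate receptor, which carries enzymes to lysosomes and removes IGF-2 from the cell surface. Its values were 10.15, 10.31, 10.39, 9.96 and 10.37 in C3H and 10.68, 10.45, 10.65, 10.54 and 10.68 in NZO. The strains did not overlap, and NZO replicate 2 was the closest to C3H. The difference was 0.36 (SE 0.09, 1.29-fold, limma adjusted p = 0.0205). It kept its size without NZO replicates 4 and 5 (0.36, SE 0.11) and with the acinar covariate (0.35, SE 0.20), but passed in neither. The call also ended without C3H replicate 1 (0.34), NZO replicate 3 (0.35) or NZO replicate 5 (0.35). Over the 10 fits that left out 1 array, the adjusted p reached 0.0625. In these fits the difference ran from 0.30, without C3H replicate 4, to 0.40. Igf2, Igf2r and the adaptor gene Grb10 are imprinted genes, and Grb10 differed by 0.21 (SE 0.08, limma adjusted p = 0.110), with 4 of 5 NZO arrays above all C3H arrays.

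Among the 8 adaptors and docking proteins, Grb14 was the one gene past the threshold. GRB14 binds the activated insulin receptor and blocks its kinase. Its gene read 9.0, 9.23, 9.04, 8.74 and 9.08 in C3H and 8.72, 8.51, 8.54, 8.62 and 8.37 in NZO. All NZO values were below all C3H values, though C3H replicate 4 and NZO replicate 1 nearly met. The difference was -0.46 (SE 0.10, lower by 1.38-fold in NZO, limma adjusted p = 0.00638). It passed in all 10 fits that left out 1 array (-0.53 to -0.41) and without NZO replicates 4 and 5 (-0.42, SE 0.11), but not with the acinar covariate (-0.32, SE 0.20).

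The docking protein genes did not pass. Irs1 read 8.04, 8.19, 8.25, 7.94 and 8.09 in C3H and 8.18, 8.00, 7.72, 7.59 and 7.75 in NZO, so that the strain effect was -0.26 (SE 0.11, limma adjusted p = 0.182). NZO replicates 3 to 5 lay below all C3H arrays and the other NZO arrays inside their range. Irs1 was -0.14 (SE 0.12) without NZO replicates 4 and 5, and its sign turned with the acinar covariate (0.17, SE 0.20). It was called with array weights and without NZO replicate 1. A second, dimmer Irs1 probe set differed by -0.02 (SE 0.09). Irs2, the main docking protein gene of beta cells, differed by -0.02 (SE 0.14), with NZO values from 9.31 to 10.00 and C3H values from 9.26 to 9.76. It was 0.14 (SE 0.14) without NZO replicates 4 and 5 and 0.53 (SE 0.24, 95% interval 0.03 to 1.04, limma adjusted p = 0.635) with the acinar covariate, so its sign was not settled either. The brain-enriched Irs4 (-0.15, SE 0.11) was dim in both strains. Of the adaptors that lead to Ras, Shc1 differed by 0.01 (SE 0.09) and Grb2 by -0.03 (SE 0.08). Sh2b2, an adaptor of the insulin receptor, differed by 0.14 (SE 0.08).

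Inpp4b had the largest difference and the smallest p of all members, and it was read by 1 probe set. The enzyme INPP4B removes a phosphate from a PI3K lipid product that activates AKT. Its gene read 6.72, 6.93, 6.76, 6.60 and 6.86 in C3H and 8.19, 8.19, 8.12, 7.97 and 7.76 in NZO. The lowest NZO array stood well above the highest C3H array. The difference was 1.27 (SE 0.10, 95% interval 1.06 to 1.48, 2.41-fold, limma adjusted p = 1.35e-06). It was 1.39 (SE 0.10) without NZO replicates 4 and 5 and 1.68 (SE 0.17) with the acinar covariate, and passed in both. Within NZO it was lowest on the replicates with the most acinar RNA. In the 19 alternatives that tested it the difference stayed between 1.22 and 1.68, and the adjusted p was at most 0.000148. The filter at the median brightness removed it before testing.

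Ptpn1, the gene of the phosphatase PTP1B, which dephosphorylates the insulin receptor, was also higher. It read 10.01, 9.83, 9.96, 9.68 and 10.08 in C3H and 10.15, 10.13, 10.29, 10.24 and 10.35 in NZO, with no overlap. The difference was 0.32 (SE 0.09, 1.25-fold, limma adjusted p = 0.0268). Leaving out C3H replicate 2 (0.31), NZO replicate 3 (0.31), NZO replicate 4 (0.32) or NZO replicate 5 (0.30) ended the call. Over the 10 fits that left out 1 array, the adjusted p reached 0.0788. In these fits the difference ran from 0.27, without C3H replicate 4, to 0.37. Ptpn1 was 0.28 (SE 0.10) without NZO replicates 4 and 5 and 0.15 (SE 0.18) with the acinar covariate. Inppl1, the gene of the lipid phosphatase SHIP2, also showed no overlap, at 8.95 to 9.15 in C3H and 9.15 to 9.33 in NZO. The strains nearly met, with the highest C3H value at 9.1532 and the lowest NZO value at 9.1536. Its difference of 0.17 (SE 0.07, limma adjusted p = 0.164) did not pass.

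Of the 19 measured members for PI3K subunits, PDK1, AKT, GSK3, the TSC and mTOR complexes and FOXO factors, limma called 0, where it called 10.1% of all genes, and 2 had an unadjusted p below 0.05. With only 19 genes, a count of 0 was not shown to differ from that share, and the difference was not tested. Their differences ran from -0.23 to 0.27, with SEs of 0.07 to 0.12. Their 95% intervals reached -0.43 at the lowest and 0.51 at the highest, so differences up to that size were not excluded for every gene. With array weights, limma called Gsk3b and Rictor of these 19.

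Among the PI3K genes the catalytic subunit Pik3cb was 0.27 higher (SE 0.11, limma adjusted p = 0.176), with 4 of 5 NZO arrays above all C3H arrays. It was 0.16 (SE 0.12) without NZO replicates 4 and 5, and its sign turned with the acinar covariate (-0.06, SE 0.22). The catalytic subunits Pik3ca (0.10, SE 0.08) and Pik3cd (-0.04, SE 0.07) and the regulatory subunits Pik3r1 (-0.07, SE 0.09), Pik3r2 (-0.03, SE 0.10) and Pik3r3 (-0.06, SE 0.07) were closer to 0. Pdpk1, the gene of PDK1, read 10.84, 11.02, 10.86, 10.72 and 10.75 in C3H and 10.86, 10.52, 10.65, 10.69 and 10.35 in NZO, so that the strain effect was -0.23 (SE 0.10, limma adjusted p = 0.178). Of its NZO arrays, 4 lay below all C3H arrays and NZO replicate 1 was as high as C3H. Pdpk1 was -0.16 (SE 0.10) without NZO replicates 4 and 5 and -0.06 (SE 0.20) with the acinar covariate.

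Akt1 differed by -0.06 (SE 0.08) and Akt2, the AKT form most tied to insulin action, by -0.03 (SE 0.08), with 0.04 (SE 0.08) in a second Akt2 probe set. Of the glycogen synthase kinase genes, Gsk3a differed by 0.04 (SE 0.07) and Gsk3b by -0.14 (SE 0.08). For the TSC complex, which restrains mTOR, the values were -0.08 (SE 0.08) for Tsc1 and -0.09 (SE 0.07) for Tsc2. Mtor itself read 8.61 to 9.01 in C3H and 8.86 to 8.94 in NZO, and differed by 0.00 (SE 0.08). The complex subunits Rptor (-0.02, SE 0.09) and Rictor (-0.17, SE 0.12) were not called either. The transcription factor genes Foxo1 (-0.09, SE 0.09), Foxo3 (0.00, SE 0.09) and Foxo4 (0.10, SE 0.08) were all within 0.10 of equality.

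At the end of the AKT branch stand Tbc1d4 and Tbc1d1, genes of Rab GTPase-activating proteins that AKT switches off to release glucose transporter vesicles. Tbc1d4 read 6.79, 6.60, 6.82, 6.22 and 6.69 in C3H and 7.02, 6.98, 6.88, 7.03 and 7.07 in NZO. No NZO value reached down to the C3H range, although NZO replicate 3 and C3H replicate 3 were close. The difference was 0.37 (SE 0.10, 1.29-fold, limma adjusted p = 0.0362). Over the 10 fits that left out 1 array, Tbc1d4 ran from 0.27, without C3H replicate 4, to 0.42. Its call ended without C3H replicate 2 (0.36), C3H replicate 5 (0.39), NZO replicate 1 (0.36), NZO replicate 4 (0.36) or NZO replicate 5 (0.35), with adjusted p up to 0.0896. It also ended without NZO replicates 4 and 5 (0.34, SE 0.13) and with the acinar covariate (0.21, SE 0.22). Tbc1d1 differed by -0.03 (SE 0.08), with overlapping strains.

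**Figure D3:**
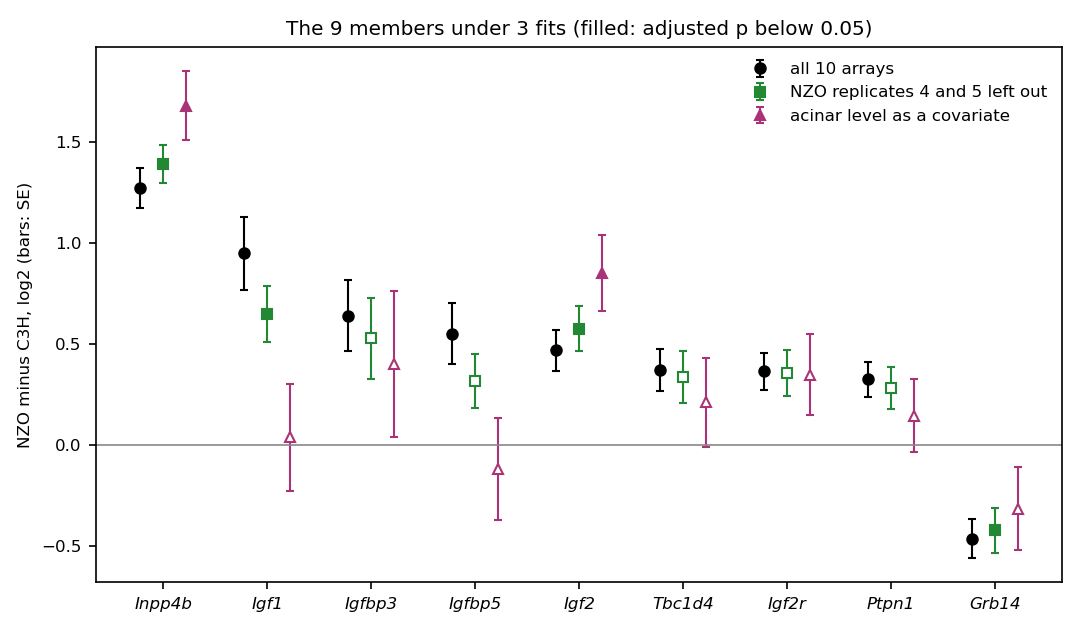
Strain difference (NZO minus C3H, log2, y axis) with its SE for the 9 members under 3 fits: all 10 arrays (black circles), NZO replicates 4 and 5 left out (green squares) and the acinar mean as a covariate (purple triangles). Filled symbols are at an adjusted p below 0.05: Inpp4b and Igf2 are filled in all 3 fits, and Igf1 falls from 0.95 to 0.65 and 0.04.

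Without NZO replicates 4 and 5, limma called 4 of the 46 members (Igf1, Igf2, Grb14 and Inpp4b), where 5.54% of all genes were called. With the acinar covariate it called 2 (Igf2 and Inpp4b), or 4.35%, where 1.07% of all genes were called. The sign of the difference turned for 18 of the 46 members with the covariate, of which Igfbp5 alone was among the 9 called, and for 8 without NZO replicates 4 and 5, none of them called. Within NZO, replicates 4 and 5 lay above replicates 1 to 3 for 5 members (Igf1, Igfbp4, Igfbp5, Pik3cb and Tbc1d4), or 10.9%, against 13.8% of all genes. They lay below them for 7 (Foxo1, Igf1r, Inpp4b, Irs2, Rptor, Tsc1 and Tsc2), or 15.2%, against 12.3% of all genes.

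Other genes of the pathway were taken from a list of 92, of which 82 were measured. Limma called 9 of the 82, 7 higher and 2 lower in NZO, or 11%, close to the 10.1% of all genes. Their median difference was 0.06. None of the 14 measured receptor and adaptor genes on this list passed, and none had an unadjusted limma p below 0.05. The largest increase was in a PI3K gene and the largest decrease in a gene of the Ras and MAP kinase branch.

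Pik3c2a, which encodes a class II PI3K of vesicle traffic, read 9.70, 9.73, 9.74, 9.39 and 9.75 in C3H and 10.73, 10.47, 10.63, 10.63 and 10.45 in NZO. No overlap was left between the strains, and NZO replicates 4 and 5 did not stand out. The difference was 0.92 (SE 0.09, 1.89-fold, limma adjusted p = 1.22e-05), and it passed in all 20 alternatives (0.85 to 0.96). Dusp6, whose product dephosphorylates the kinase ERK, read 9.94, 10.24, 10.15, 9.68 and 9.97 in C3H and 9.23, 8.87, 9.0, 9.29 and 9.27 in NZO. All its NZO values were lower. The difference was -0.86 (SE 0.11, lower by 1.82-fold in NZO, limma adjusted p = 0.000202), between -1.14 and -0.79 in all 20 alternatives, each of which called it.

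Around the ligands, Stc2, whose product inhibits a protease that releases IGF from its carriers, was higher by 0.54 (SE 0.11, limma adjusted p = 0.00573). Its values were 7.15 to 7.54 in C3H and 7.63 to 8.13 in NZO, and the call ended with the acinar covariate at a like size (0.53, SE 0.24). Htra1, the gene of a secreted protease that can cut IGF binding proteins, was 0.45 higher (SE 0.11, limma adjusted p = 0.0208), but 0.29 without NZO replicates 4 and 5 and 0.03 with the acinar covariate, passing in neither. Its call also ended without C3H replicate 1 (0.43), C3H replicate 3 (0.40), NZO replicate 4 (0.38) or NZO replicate 5 (0.40).

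In the mTOR branch, Eif4ebp1, the gene of a brake on translation that mTOR releases, read 9.25 to 9.35 in C3H and 9.56 to 9.79 in NZO. The spread within C3H was small, and the difference was 0.39 (SE 0.07, 1.31-fold, limma adjusted p = 0.0023). It lost its call with the acinar covariate at an unchanged size (0.40, SE 0.16). Prr5, which encodes a subunit of an mTOR complex, was 0.44 higher (SE 0.10, limma adjusted p = 0.0094), but 0.31 without NZO replicates 4 and 5 and 0.04 with the acinar covariate, passing in neither. Sesn1, the gene of a stress-induced inhibitor of mTOR, was lower (-0.33, SE 0.09, limma adjusted p = 0.0272), and it passed in 3 of the 10 fits without 1 array, those without C3H replicate 4 (-0.39), NZO replicate 1 (-0.34) or NZO replicate 2 (-0.37). It passed neither without NZO replicates 4 and 5 (-0.28, SE 0.11) nor with the acinar covariate (-0.22, SE 0.19).

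Socs3, a feedback inhibitor of cytokine and insulin receptors, read 9.33 to 9.73 in C3H and 9.85 to 10.15 in NZO. The difference was 0.39 (SE 0.10, limma adjusted p = 0.0173), and 0.16 (SE 0.08) in a second Socs3 probe set. Its call ended without C3H replicate 1 (0.36) or NZO replicate 5 (0.33), and also without NZO replicates 4 and 5 (0.34, SE 0.11) and with the acinar covariate (0.26, SE 0.20). Sgk1, a kinase related to AKT, was the remaining called gene, at 0.33 (SE 0.09, limma adjusted p = 0.0378). It lay outside the rule for named genes and is named after its values were seen. Its call ended in 8 of the 10 fits without 1 array, in all except those without C3H replicate 5 (0.37) or NZO replicate 2 (0.40). It also ended without NZO replicates 4 and 5 (0.25, SE 0.11) and with the acinar covariate (0.11, SE 0.19).

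**Figure D4:**
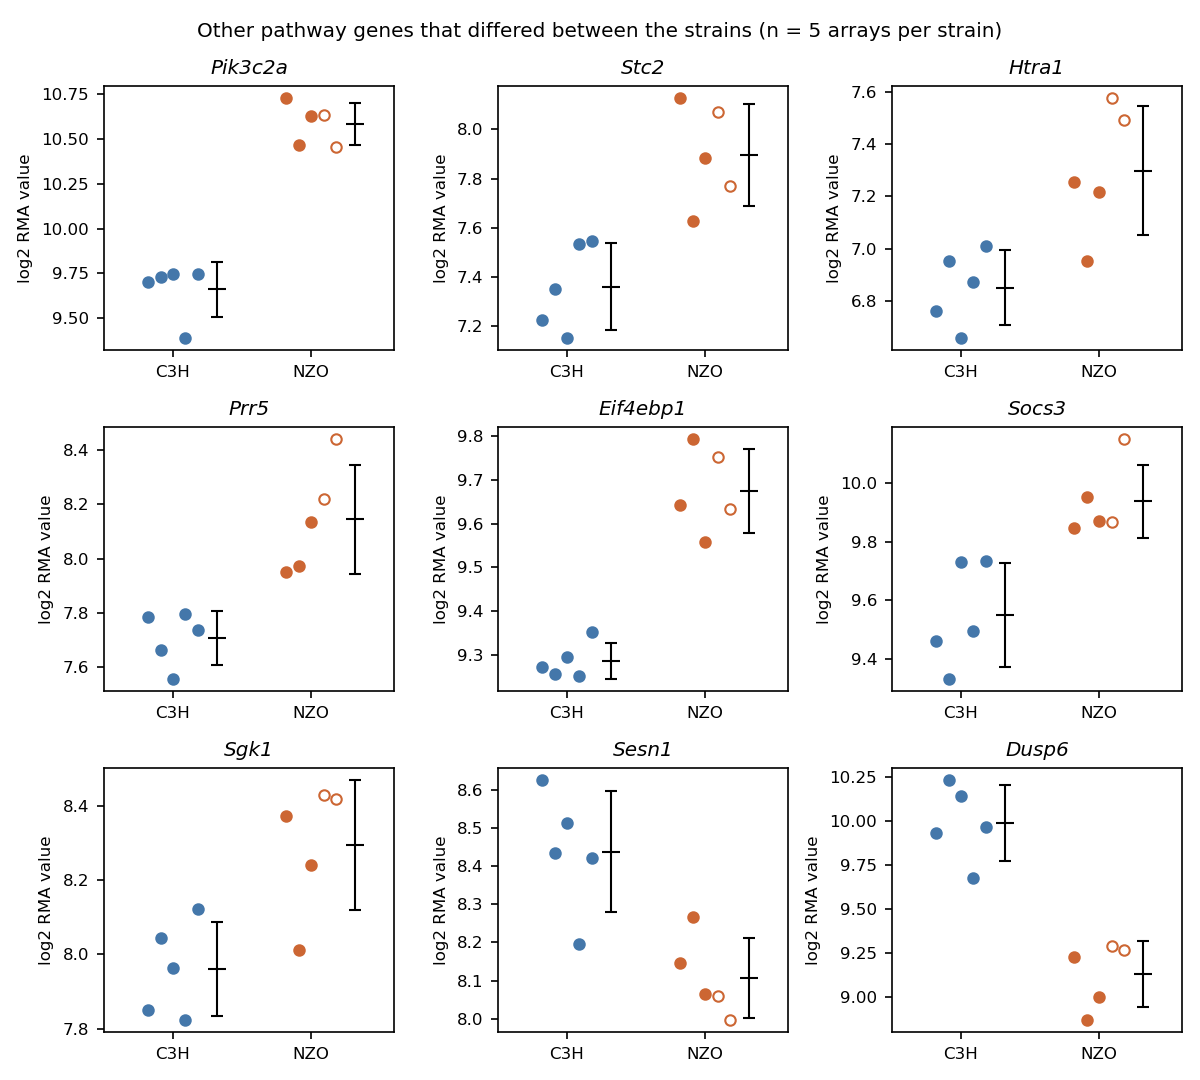
Log2 RMA values (y axis, a separate scale per panel) of the 9 other pathway genes that differed, 1 point per array, with the mean and SD over 5 arrays per strain; open circles are NZO replicates 4 and 5. Pik3c2a (9.66 against 10.58 on average) and Dusp6 (9.99 against 9.13) show the widest gaps.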

How the data were processed

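Per the submitters' processing notes, the authors made the deposited log2 values with RMA in the Affymetrix Expression Console. RMA subtracts background, brings all arrays to one distribution and gives 1 value per probe set. It makes no detection call and shrinks differences of dim and saturated probe sets. For the software version, library and build, the sources used here give nothing. RNA had an integrity number above 8, per the labels' protocols. Of 35556 probe sets, 21789 carried 1 symbol, 1621 several and 12146 none. The brightest probe set per gene was kept. Each member that differed had only 1 such probe set, so none of these calls could be compared with a second.

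NZO minus C3H was fitted on all 19938 genes in limma 3.58.1 (lmFit and eBayes, R 4.3.3). P-values were two-sided and adjusted by Benjamini-Hochberg over the genes tested, at a threshold of 0.05. SEs are limma's. On simulated data of the 19938 genes for this comparison, 70.7% of genes changed by 0.5 log2 units and 100% of those changed by 1 or 2 were recovered, with 10 false calls among the unchanged genes. The simulation changed 200 genes and drew noise for each gene on its own, whereas limma called 2010 genes in the data. Its rates need not hold for these arrays. A gene is called dim where a strain mean lies below that strain's average 25th percentile.

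Replicate numbers follow the order of deposition. Whether each array is 1 animal or a pool is not stated in the labels, so p-values reflect only how these samples vary, which may be technical, and the number of arrays limits the precision. The labels give no batch, and no arrays were identical. Members and lists were chosen with earlier results of these data known. All members may be named, in full those past the threshold and Insr and Igf1r. Of the other pathway genes, the rule names up to 8 called genes by smallest p and Ins2. Alternatives were brightness filters, other probe set choices, centring, variance models, array weights, the acinar mean as a covariate and arrays left out. Igf2bp2 and Rps6kb1 were not analysed here.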

Additional observations from a re-analysis of the deposited data

Results flagged for a closer look

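Single arrays far from the rest of their strain were looked for with Dixon's gap-over-range test in 112 groups of 5 values, of which chance alone flags about 1 in 20. It found 6 values, 5 of them on C3H replicate 4. On that array Igfbp6 (7.07) and Irs4 (6.38) were above the other C3H arrays, and Mtor (8.61), Rictor (8.53) and Pik3c2a (9.39) were below them. The remaining value was Igfbp3 on NZO replicate 2 (9.97), where the other NZO arrays lay between 10.57 and 10.78. Without NZO replicate 2 the Igfbp3 difference was 0.79, and without C3H replicate 4 it was 0.59 and lost its call. Of the other genes with such a value, Pik3c2a was called with and without C3H replicate 4.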

How the results depend on the processing

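No paired analysis was possible because the labels give no replicate numbers that the strains share. With 1 array left out, the number of called members ran from 4 to 10 (higher 3 to 9, lower 1 to 2), that of other pathway genes from 5 to 12, and that of all genes from 1441 to 2701. The filter at the median brightness left 5 higher members, since Igf1, Inpp4b and Tbc1d4 were not tested. Array weights raised the counts to 15 members (4 lower), 22 other genes and 4125 of all genes. That is 32.6% of members and 20.7% of all genes. The 6 members added were Grb10, Gsk3b, Igfbp2, Igfbp4, Irs1 and Rictor. The acinar covariate left 2 members (2 higher, 0 lower), 3 other genes and 213 of all genes. Without NZO replicates 4 and 5 there were 4 members (3 higher), 4 other genes and 1105 of all genes. Signs turned for 18 members with the covariate, Igfbp5 (-0.12) and Igf1r (0.51) among them, and for 8 with NZO replicates 4 and 5 left out, Igf1r (0.0405) among them; the cause was not tested. The robust variance model ended the calls of Igfbp3 and Igfbp5. Centring, the intensity trend, the other probe set choices and the filter at the 25th percentile kept the 9 called members and added none, but Igf1 passes that filter only through its NZO values, so its place there is no support.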
